A study of Mus musculus with 2 samples.

Results

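The genes of the cytosolic ribosomal proteins were followed through single-cell libraries of mouse long-bone marrow. Members were taken by symbol, as Rpl or Rps genes of the mouse nomenclature, the stalk genes Rplp0, Rplp1 and Rplp2, and Rpsa, with annotated pseudogenes left out and with at least 50 unique molecular identifiers (UMIs, one per captured transcript molecule) over both libraries. Of 34144 genes listed, 83 matched and 82 were kept, 50 of the large and 32 of the small ribosomal subunit. The weakest member was Rpl3l, with 300 UMIs, and the gene left out was Rpl10l, with 2 UMIs. One library came from old mice and the other from adult mice, all wild type and of the C57BL6 strain. In both, marrow flushed from the bones had been digested with enzymes, red cells lysed, blood-forming cells depleted by magnetic separation and live cells sorted before the droplet-based 3′ assay. The labels give neither ages in months nor the number of mice, nor whether marrow was pooled. With 1 library for each age there is no replicate, so no difference below was tested, and every interval is an exact 95% interval that covers counting error only.

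Cytosolic ribosomes are built in the nucleolus from ribosomal RNA and the ribosomal proteins, and their supply sets how much protein a cell can make. The messenger RNAs of these proteins begin with a pyrimidine tract, the 5′ terminal oligopyrimidine (TOP) motif, through which mTOR signalling controls their translation as a group. In marrow, plasma cells secrete antibody, erythroid precursors fill with haemoglobin and are the cells that fail in Diamond-Blackfan anaemia, a human disease of mutated ribosomal protein genes, and the CXCL12-producing stroma supports blood stem cells.

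The old library held 229917243 UMIs and 18975 cells after filtering, and the adult library held 208637421 UMIs and 22403 cells. Both lists of barcodes shared 152 sequences. Cells were assigned by the share of their UMIs that fell on 7 or 8 marker genes of a type, so each class below is a range of marker level and not a cluster. Stroma-gated cells numbered 14404 in the old and 15821 in the adult library, and Cxcl12 was found in over 99% of them in each, at 7610 and 7985 UMIs per 1000000 UMIs of the class (counts per 1000000, CPM). Plasma-gated cells numbered 1109 in the old library and 0 of 22403 in the adult, which allows a share of up to 0.0134%. Of the 8 plasma markers, 7 were found in over 10% of these cells, led by Jchain at 2687 CPM and Xbp1 at 1096 CPM, while Mzb1 was at 2.56 CPM. Erythroid-gated cells numbered 641 in the old and 108 in the adult library, and 395 and 9 of these lay between the gate and its double. They were split by haemoglobin UMIs, because the libraries held different mixtures. Under 5% haemoglobin were 447 old and 24 adult cells, and at or above 20% were 162 and 73. The old low-haemoglobin cells carried Klf1 at 187 CPM and Rhag at 214 CPM, in 98.0% and 97.8% of cells, with Car2 at 2169 CPM and Mki67 at 521 CPM, whereas Slc4a1, the late erythroid band 3 gene, was found in 7.16%. In old stroma Klf1 was at 2.16 CPM and found in 1.34% of cells.

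Promoter sequence was available from RefSeq (build GRCm38.p6) for 62 of the 82 members, at 74 transcription starts. The window from 40 bases before to 20 bases after the start was searched on both strands for 3 pyrimidine words. The words were CTCTT, then the word CTTTC and lastly the word CTTCC, and the first can overlap with either of the others. On the gene strand, 52.7% of member starts held at least 1 of the words, against 24.5% of all 32851 starts in the table. On the opposite strand, the shares were 27.0% of member starts and 25.1% of all starts. Windows are printed for genes that the results below turn on: the paralogue pairs Rpl22 and Rpl22l1, Rpl39 and Rpl39l, and Rps27 and Rps27l, the members highest over stroma in plasma cells (Rpl10) and in erythroid cells (Rps2, Rplp0), and Rps6 and Rpl28. Capitals mark the words found on the printed strand, and the start is base 41 of each. For Rpl22 and Rps27l, the first of the starts in the table is shown.
Rpl22, chr4:152325686-152325745, plus strand: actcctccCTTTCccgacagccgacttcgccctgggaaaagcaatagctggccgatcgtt
Rpl22l1, chr3:28805468-28805527, plus strand: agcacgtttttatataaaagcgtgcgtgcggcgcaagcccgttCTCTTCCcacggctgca
Rpl39, chrX:37085203-37085262, minus strand: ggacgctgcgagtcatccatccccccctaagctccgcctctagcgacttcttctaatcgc
Rpl39l, chr16:10170188-10170247, plus strand: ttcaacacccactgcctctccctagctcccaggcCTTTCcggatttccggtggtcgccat
Rps27, chr3:90213629-90213688, minus strand: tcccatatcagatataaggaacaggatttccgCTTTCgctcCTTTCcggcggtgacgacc
Rps27l, chr9:66946046-66946105, plus strand: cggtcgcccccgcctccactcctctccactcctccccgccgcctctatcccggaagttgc
Rpl10, chrX:74270776-74270835, plus strand: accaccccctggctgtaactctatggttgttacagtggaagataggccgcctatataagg
Rps2, chr17:24720023-24720082, plus strand: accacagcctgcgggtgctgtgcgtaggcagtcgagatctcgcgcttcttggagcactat
Rplp0, chr5:115559427-115559486, plus strand: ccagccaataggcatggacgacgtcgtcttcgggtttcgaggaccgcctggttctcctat
Rps6, chr4:86857348-86857407, minus strand: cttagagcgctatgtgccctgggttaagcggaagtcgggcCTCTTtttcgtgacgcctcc
Rpl28, chr7:4792925-4792984, plus strand: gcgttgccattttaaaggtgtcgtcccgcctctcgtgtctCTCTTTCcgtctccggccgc
Of these windows, that of Rps27 held 2 separate words and those of Rpl28 and Rpl22l1 held 2 that overlap, while Rpl39, Rps27l, Rpl10, Rps2 and Rplp0 held none of the words in these letters. A match is a stretch of letters and was not tested as a functional motif. The 40 bases before the start are outside the transcript that begins there, so a match among them is not a TOP tract. The words marked for Rpl22 and Rpl39l lie among them, and so does the first of the 2 marked for Rps27. The shares above count matches on either side of the start.

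Erythroid precursors low in haemoglobin gave the largest part of their RNA to ribosomal proteins, 23.9% of all UMIs in the old library (interval 23.9% to 23.9%) and 25.3% in the adult (25.2% to 25.4%). Plasma cells of the old library gave 10.6%, osteolineage-gated cells 9.81% in old and 10.5% in adult marrow, endothelial cells 5.73% and 7.26%, and stroma 5.06% and 5.65%. Megakaryocyte-gated cells stood at 4.48% in the old and 4.10% in the adult library, and erythroid cells high in haemoglobin at 3.89% and 2.31%. Most megakaryocyte-gated cells were shallow, with medians of 1686 UMIs in old and 1542 in adult marrow. Their median shares were lower than the summed ones, at 2.67% and 2.17%. In absolute terms, the median cell held 15868 ribosomal protein UMIs among old low-haemoglobin erythroid cells, 3332 among plasma cells and 362 among old stroma, where total depth also differed (medians of 65212, 34077 and 7510 UMIs).

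The share depends on what else fills the cell. Immunoglobulin transcripts took 46.1% of plasma cell UMIs, and once mitochondrial, immunoglobulin and haemoglobin UMIs were set aside, ribosomal proteins made up 20.5% of the remainder, against 24.6% in old low-haemoglobin erythroid cells and 5.22% in old stroma. In high-haemoglobin erythroid cells haemoglobin took 52.9% of UMIs in the old and 54.5% in the adult library, and ribosomal proteins made up 8.47% and 5.17% of the remainder. Large-subunit UMIs outnumbered small-subunit UMIs in every class above, by 1.23-fold in plasma cells, 1.24-fold in old low-haemoglobin erythroid cells and 1.23-fold in old stroma, and by 1.39-fold in old megakaryocyte-gated cells. These sums run over 50 large-subunit and 32 small-subunit members, so they do not compare the level of single genes.

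**Figure D1:**
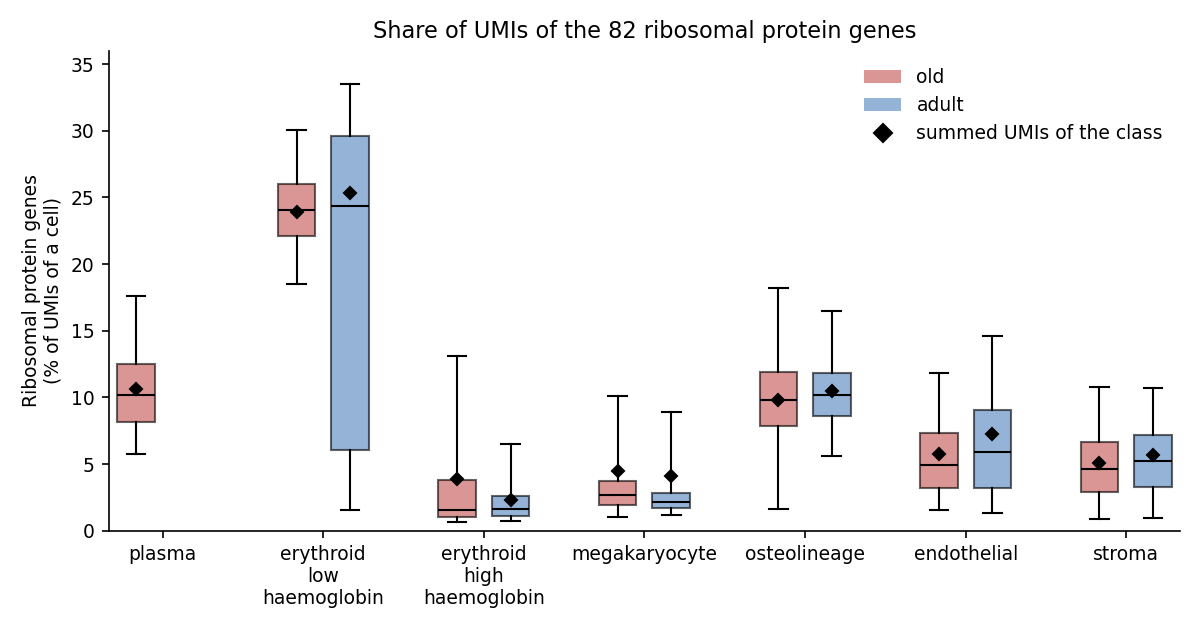
Percent of a cell's UMIs on the 82 ribosomal protein genes (y axis) by marker-gated class and library. Boxes give the median and quartiles over cells, whiskers the 5th to 95th percentile and diamonds the share of the summed UMIs. Low-haemoglobin erythroid cells stand highest, with summed shares of 23.9% in old and 25.3% in adult marrow, and plasma cells were found in the old library alone.

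In stroma, ribosomal protein transcripts were lower in old than in adult marrow as a group, by a small amount, with 6 of 80 higher, although their median was 0.06 on the log2 scale once ratios were centred by transcript length. The summed share was 5.06% in old and 5.65% in adult cells, a ratio of 0.895, and the cell medians were 4.66% and 5.22%, with wide and overlapping ranges (5th to 95th percentile 0.841% to 10.7% in old and 0.925% to 10.7% in adult cells). Markers of osteolineage cells, a class with a higher ribosomal protein share, moved with the difference: the 7 markers summed to 3268 CPM in old and 8265 CPM in adult stroma, 4 and 6 of them were found in over 10% of cells, and Col1a1 had at least 1 UMI in 40.8% and 97.5% of cells. The gap in Col1a1 was not particular to stroma. Erythroid-gated cells held 14.9 CPM of it in the old library, with 39.9% of cells positive, and 493 CPM in the adult library, with 100% positive. Endothelial cells held 47.5 CPM (18.0% positive) in the old and 842 CPM (94.6% positive) in the adult library. The detection rates alone therefore do not show a shift within stroma. The part of these markers in the difference was not tested. Of 80 members with enough UMIs, 74 were lower and 6 were higher in old stroma, with a median log2 ratio of old over adult of -0.16, and none reached 2-fold, against 4.71% of the 4208 genes tested. Over all those genes the median log2 ratio was 0.01, and 51.1% were above 1 as a ratio. The 48 large-subunit members (median -0.16) and the 32 small-subunit members (median -0.18) lay close together.

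The lowest ratios belonged to Rpl39l, an alternative form of Rpl39 at the peptide exit tunnel, at 42.2 CPM in old and 65.7 CPM in adult stroma (log2 -0.64, interval -0.69 to -0.59), and Rpl15, a large-subunit gene mutated in some patients with Diamond-Blackfan anaemia, at 471 and 600 CPM (-0.35, interval -0.36 to -0.33). Next came the Rpl22 paralogue Rpl22l1 (-0.33), Rps10 (-0.33), the stalk base protein gene Rplp0 (-0.32), Rps27l (-0.32), Rps20 (-0.30) and Rpl28 (-0.30). At the other end stood Rpl4, at 197 CPM in old and 184 CPM in adult stroma (0.10, interval 0.07 to 0.12), and Rps6, the small-subunit protein phosphorylated by S6 kinase, at 343 and 329 CPM (0.06, interval 0.04 to 0.08). These were followed by Rpl17 (0.06), Rps14 (0.05) and Rps15 (0.02).

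Among the stalk genes, whose proteins recruit elongation factors to the ribosome, Rplp1 stood at 1371 CPM in old and 1373 CPM in adult stroma and Rplp2 at 644 and 680 CPM, so that Rplp0 was the member that differed most. All 20 genes of the Diamond-Blackfan anaemia list were lower in old stroma, with a median of -0.20, where 51.1% of genes tested were higher. Each of the 20 is a member counted above, and most members were lower too, with a median close to that of the list.

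Other genes of the protein synthesis machinery were counted in the same way. Against 51.1% of genes tested that were higher in old stroma, 5 of 17 translation factors with TOP messenger RNAs were higher and 12 lower (median -0.09), the lower ones including Naca (-0.32) and Btf3 (-0.26), the nascent polypeptide complex, while Eif4b, an initiation factor, was higher at 60.3 CPM against 46.5 CPM (0.37). All 7 ribosome biogenesis genes with enough UMIs, all 27 mitochondrial ribosomal protein genes and all 14 core proteasome genes were lower, with medians of -0.17, -0.39 and -0.20, against 0.01 for all genes tested. Of 10 mTOR and Myc regulators, 5 were lower and 5 higher. The one past 2-fold was Ddit4, a stress-induced inhibitor of mTORC1, at 32.3 CPM in old and 72.7 CPM in adult stroma (-1.17, interval -1.22 to -1.11).

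Transcript length moved with these ratios. Length was that of the longest annotated transcript of each gene, which need not be the one expressed. By it members were short, with a median of 1100 bases against 4016.5 bases for the genes tested. The shortest quartile of all genes had a median log2 ratio of -0.24 in stroma, against 0.14 for the longest quartile. When each ratio was centred on the median of genes of like length, members included, the members' median became 0.06 in stroma and 0.06 in osteolineage cells. On the same scale the median was 0.01 for the Diamond-Blackfan list, 0.01 for the TOP translation factors and 0.02 for the proteasome genes, and it was -0.16 for ribosome biogenesis and -0.17 for mitochondrial ribosomal protein genes. The part of transcript length in the age difference was not tested.

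**Figure D2:**
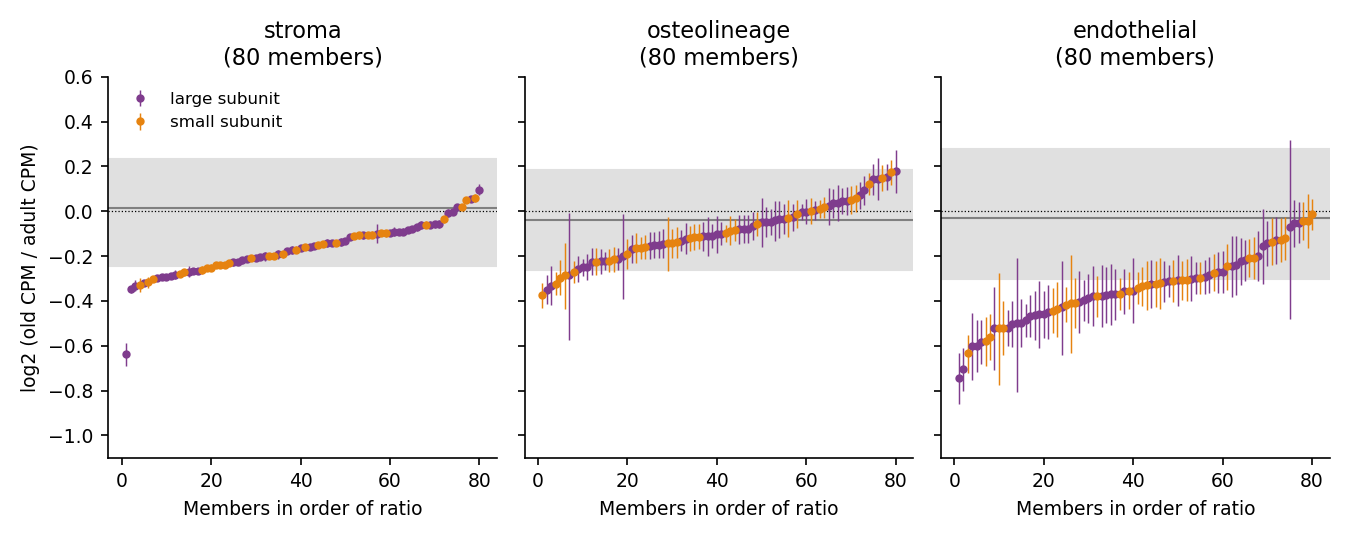
log2 ratio of old over adult CPM (y axis) of each ribosomal protein gene with enough UMIs, in order of ratio (x axis), in 3 classes, with exact 95% counting intervals. The grey band and line give the quartiles and median of all genes tested, and the medians of the members are -0.16 in stroma, -0.10 in osteolineage and -0.35 in endothelial cells, before any centring by transcript length.

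Members were also lower in old bone-forming and vascular cells before any centring by transcript length, and with it the median was 0.06 in osteolineage and -0.14 in endothelial cells. In osteolineage-gated cells (95 old, 2415 adult), the summed share was 9.81% in old and 10.5% in adult cells. There 60 of 80 members were lower in old cells and 20 higher, where 44.9% of genes tested were higher (median -0.10, median of all genes -0.04), and 0 were past 2-fold, against 7.33% of genes tested. The range ran from Rps21, at 1323 CPM in old and 1715 CPM in adult cells (-0.37), to Rpl4, at 479 and 423 CPM (0.18). In endothelial cells (278 old, 1271 adult), the share was 5.73% in old and 7.26% in adult cells and all 80 members were lower, where 47.4% of genes tested were higher (median -0.35, median of all genes -0.03), with 0 past 2-fold, against 11.4% of genes tested. Markers of other cells differed between these groups: the 8 stroma markers summed to 2794 CPM in old and 1303 CPM in adult endothelial cells and the 7 osteolineage markers to 254 and 1671 CPM, and their part in the difference was not tested. Rpl39, at 537 CPM in old and 899 CPM in adult endothelial cells (-0.74), and Rpl28, at 748 and 1219 CPM (-0.70), had the lowest ratios, and Rps14, at 1564 and 1579 CPM (-0.01), the highest. Of 14 proteasome genes, 9 were lower there and 5 higher (median -0.07).

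Within stroma, single cells differed far more than the libraries did. Across cells of 1 library, which share a preparation but differ in depth, the ribosomal protein share followed the share of the TOP translation factors (Spearman's rho 0.93 over 14404 old cells and 0.93 over 15821 adult cells). It also followed mitochondrial ribosomal protein genes (0.71 in old and 0.76 in adult cells), core proteasome genes (0.68 and 0.73) and ribosome biogenesis genes (0.45 and 0.51). It ran against the share of Malat1, a long non-coding RNA retained in the nucleus (rho -0.61 and -0.56). These are shares of 1 total in each cell, so they are not independent. Stroma cells under 0.5% Malat1 had a median ribosomal protein share of 10.3% in old and 10.7% in adult marrow, and those at or above 6% had 1.16% and 1.63%. The old median was below the adult one in each of 6 Malat1 ranges, for example 4.43% against 5.40% between 2% and 4%. It was also lower in 5 of 6 ranges of depth, the exception being cells under 2000 UMIs, at 3.55% in old and 2.14% in adult marrow. Malat1 itself was lower in old stroma, at 28057 CPM against 33798 CPM.

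**Figure D3:**
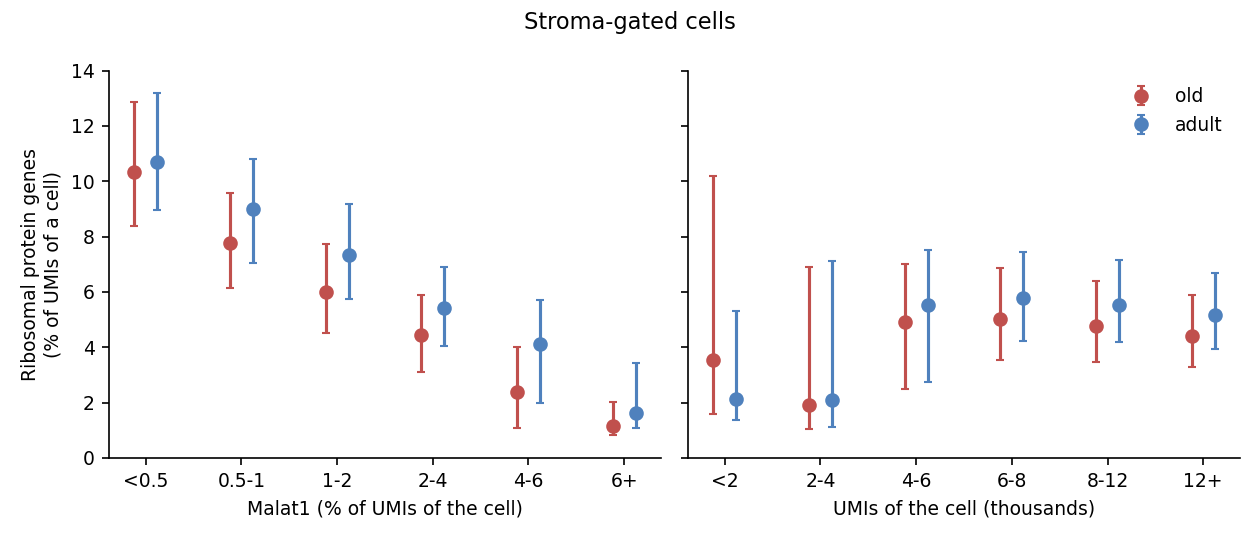
Ribosomal protein share of UMIs per stroma-gated cell (y axis, median and quartiles) by the cell's Malat1 share (left) and by its UMI total (right), old beside adult. The medians run from 10.3% in old and 10.7% in adult cells of lowest Malat1 to 1.16% and 1.63% in those of highest Malat1.

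Members varied together from cell to cell. Over stroma cells with at least 5000 UMIs (10810 old, 11405 adult), each member's share was compared with that of the other members. The median rho was 0.72 in old and 0.70 in adult cells, and the highest was 0.84 for Rpl13 in old cells. Genes outside the family were not compared in this way. Members at a mean below 2 UMIs per cell gave low values, down to -0.02 for Rpl3l, and such sparse counts are not read further.

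Plasma cells of the old library carried more ribosomal protein RNA per UMI than stroma of the same library, even with 46.1% of their UMIs on immunoglobulins. Of 79 members with enough UMIs, 76 were higher in plasma cells, where 16.4% of the genes tested were, and 42 of them were higher by at least 2-fold, against 8.62% of the 4163 genes. The members' median log2 ratio was 1.07 and that of all genes was -1.73. Highest was Rpl10, the large-subunit protein that joins last and completes the subunit, at 2073 CPM in plasma cells and 480 CPM in stroma (2.11, interval 2.10 to 2.13). Rpl41, which encodes the smallest ribosomal protein, stood at 4398 and 1073 CPM (2.03), Rps24 at 3662 and 1151 CPM (1.67) and Rps6 at 1065 and 343 CPM (1.63). Rpl17 (1.60), Rpl23 (1.57), Rpl32 (1.57) and Rpl28 (1.49) followed.

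Of those 79 members, the 3 lower in plasma cells were Rpl22l1, Rpl9 and Rpl21. Rpl22l1 was the one past 2-fold, against 68.2% of genes tested, at 46.5 CPM in plasma cells and 195 CPM in stroma (-2.07, interval -2.14 to -2.001). It passed the minimum through its stroma level alone. Rpl9 stood at 615 and 760 CPM (-0.31) and Rpl21 at 524 and 614 CPM (-0.23). Rpl9 values are uncertain, because a near-identical copy, Rpl9-ps6, is listed as well, at 10.9 CPM in plasma cells and 13.6 CPM in old stroma. The same holds for Rpl10, whose copy Rpl10-ps3 is listed at 40.8 and 10.1 CPM, and how reads shared with copies were counted is not stated for Rpl21 either. Under the minimum were Rpl39l, the member with the lowest ratio, at 1.65 CPM in plasma cells and 42.2 CPM in stroma (-4.68, interval -5.06 to -4.33), Rpl7l1, at 20.2 and 34.9 CPM (-0.79), and Rpl3l, with 5 UMIs in plasma cells and 95 in stroma. The stalk genes were among the smaller increases, with Rplp1 at 0.98, Rplp0 at 0.81 and Rplp2 at 0.73. All 20 genes of the Diamond-Blackfan list were higher, as were all but 3 of the 79 members, to which they belong. Their median of 1.08 was close to that of all members.

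The other lists are read against all genes tested, of which 16.4% were higher in plasma cells, with a median of -1.73. Of 17 TOP translation factors, 11 were higher in plasma cells (median 0.45), led by Eef1b2 at 776 CPM against 242 CPM (1.68), Tpt1 (1.56) and Rack1, a protein of the small subunit (1.40). Of 6 ribosome biogenesis genes, 5 were lower, a share near that of all genes (median -0.38), among them the ribosomal RNA transcription factor Ubtf (-0.93), and Gnl3 was higher (0.89). Of 20 mitochondrial ribosomal protein genes, 12 were higher and 8 lower, from Mrps6 at 4.63 CPM against 97.8 CPM (-4.40) to Mrpl57 at 211 against 30.1 CPM (2.81). All 8 mTOR and Myc regulators were lower, 7 of them past 2-fold, against 68.2% of genes tested (median -1.52), with the Myc antagonist Mxd4 at 29.2 CPM in plasma cells and 185 CPM in stroma (-2.67).

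Low-haemoglobin erythroid cells of the old library exceeded stroma in all 80 members with enough UMIs, each at least 2-fold, against 34.5% of the 5423 genes tested. The members' median log2 ratio was 2.24 and that of all genes was 0.07. The highest were Rps2, a small-subunit protein near the entry of the messenger RNA, at 6316 CPM in erythroid cells and 716 CPM in stroma (3.14, interval 3.13 to 3.15), Rplp0 at 4178 and 533 CPM (2.97) and Rpl13a at 528 and 69.6 CPM (2.92). Of these 80, the lowest were Rps27 at 1223 and 502 CPM (1.29), Rpl39 at 1998 and 648 CPM (1.62) and Rps24 at 3666 and 1151 CPM (1.67). Rpl39l, under the minimum of 50 CPM, was lower in erythroid cells, at 5.54 CPM against 42.2 CPM (-2.93, interval -3.17 to -2.70). Rpl7l1, at 143 CPM in erythroid cells against 34.9 CPM in stroma, was among the 80 through its erythroid level alone. The count of 80 is therefore partly set by the filter. Rps27 and Rpl39, over all old erythroid cells, exceeded stroma by no more than the median gene of like length (length-centred log2 ratios of -0.36 and -0.01). The 20 Diamond-Blackfan genes, all among these 80, had a median of 2.29, close to that of all members.

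Ribosome assembly genes were high in the same cells. All 28 with enough UMIs were at least 2-fold above stroma, against 34.5% of genes tested (median 3.11). The minimum of 50 CPM applied only where a gene was higher, so genes low in stroma could enter through their erythroid level alone. Nhp2, a protein of pseudouridylation particles, entered so, at 464 CPM against 19.0 CPM (4.61). So did the methyltransferase Fbl, at 464 against 30.2 CPM (3.94). The count of 28 is therefore partly set by the filter. The nucleolar proteins Npm1 and Ncl, above the minimum in both classes, stood at 4653 against 281 CPM (4.05) and 3571 against 252 CPM (3.83). The median was 2.09 over 70 mitochondrial ribosomal protein genes and 1.69 over 14 core proteasome genes, under the same minimum. Malat1 ran the other way, at 2498 CPM in erythroid cells and 28057 CPM in stroma (-3.49), and so did Mxd4 (-4.29).

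Plasma cells were then set against low-haemoglobin erythroid cells of the old library. They were lower in 79 of 80 members, where 15.5% of genes tested were higher (median -1.17, against -1.87 over all genes), 55 of them past 2-fold, against 72.7% of genes tested. Rpl10, at 2073 CPM in plasma and 1776 CPM in erythroid cells (0.22), was the exception, and Rps24 was nearly level, at 3662 and 3666 CPM. These CPM count the immunoglobulins, 46.1% of plasma cell UMIs, in the total, which lowers the plasma value of every member. With mitochondrial, immunoglobulin and haemoglobin UMIs set aside, the summed shares were 20.5% in plasma and 24.6% in erythroid cells. Single members were not recounted that way here, so Rpl10 is the exception at the full total only. The widest gaps were in Rpl22l1, at 46.5 CPM in plasma and 721 CPM in erythroid cells (-3.95), in Rpl7l1, at 20.2 and 143 CPM (-2.82), and in Rps2, at 1126 and 6316 CPM (-2.49).

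**Figure D4:**
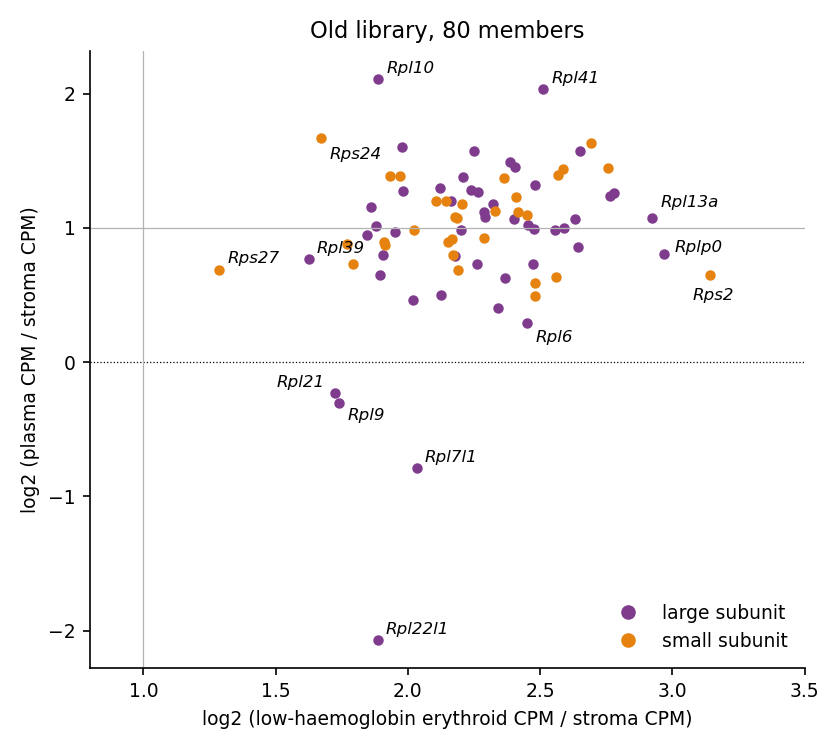
log2 ratio over stroma in plasma cells (y axis) against that in low-haemoglobin erythroid cells (x axis) of the old library, 1 point for each of 80 members with at least 100 UMIs in each class, with grey lines at 2-fold. Both axes share the same stroma values. Rpl10 and Rpl41 are highest in plasma cells (2.11 and 2.03), Rps2 is highest in erythroid cells (3.14), and Rpl22l1 is lowest in plasma cells (-2.07).

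Between the ages, erythroid results turned on haemoglobin content. Over all erythroid-gated cells, all 80 members were higher in the old library (median 0.61, or -0.03 centred by transcript length, and median of all genes 0.56), but 75.4% of genes tested were higher too. Past 2-fold were Rpl7l1 (1.17) and Rps27l (1.04), against 33.1% of genes tested. Haemoglobin took 2.77% of UMIs in these old cells and 23.4% in the adult ones. Among low-haemoglobin cells, 25 members were higher and 55 lower in old marrow, where 69% of genes tested were higher (median -0.05, median of all genes 0.20), and 0 were past 2-fold, against 6.41% of genes tested. Among high-haemoglobin cells, 77 of 78 members were higher in old marrow, where 67.9% of genes tested were higher (median 0.76, median of all genes 0.19), and 22 were past 2-fold, against 8.68% of genes tested, with Rps2 at 711 CPM in old and 212 CPM in adult cells (1.75) and Rpsa, a small-subunit protein also known as a laminin receptor, at 563 and 217 CPM (1.37). The cell medians of the last class were 1.53% in old and 1.66% in adult cells, the other way from the summed shares. In low-haemoglobin cells the mean share over cells was 23.7% in old and 19.5% in adult marrow, against summed shares of 23.9% and 25.3%. Osteolineage markers summed to 108 CPM in old and 927 CPM in adult low-haemoglobin cells. The part of the mixture of stages and of such transcripts in these age differences was not tested.

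In the adult library, erythroid cells of any haemoglobin content exceeded adult stroma in 80 of 81 members, where 38.4% of genes tested were higher, and 73 were at least 2-fold higher, against 20.7% (median 1.39, median of all genes -0.62). Single cells differed from this sum: the median cell gave 2.26% of its UMIs to ribosomal proteins in the adult erythroid class and 5.22% in adult stroma, the 73 high-haemoglobin cells gave 2.31% in sum, and with each cell weighted alike the members' median log2 ratio was 0.41. In the old library all 80 members were at least 2-fold higher, against 33.8% of genes tested (median 2.18). Rpl7l1 was among these 80 through its erythroid level alone, and Rpl39l was outside them, under the minimum. Rps2 was the highest in both, at 6020 CPM against 716 CPM in the old and 3543 CPM against 822 CPM in the adult library, and Rpl39l was the lowest, at 5.25 CPM against 42.2 CPM in the old library (-3.01) and 5.47 CPM against 65.7 CPM in the adult (-3.59, from 7 erythroid UMIs).

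Within the family, paralogue pairs differed between cell types. Each is given as the paralogue's share of the UMIs of the pair, which total depth does not set, and is read within a pair only. Rpl22l1 took 3.98% of the pair with Rpl22 in plasma cells (interval 3.81% to 4.17%), 25.01% in low-haemoglobin erythroid cells and 32.3% in stroma of the old library (32.0% to 32.7%). In the adult library, it took 35.3% in stroma. In plasma cells Rpl22 itself was raised, at 1120 CPM against 408 CPM in stroma (1.46), while Rpl22l1 was lower. In osteolineage cells, Rpl22l1 took 46.6% in old (44.5% to 48.8%) and 38.6% in adult marrow (38.1% to 39.0%), the highest share of any class in each library, and in endothelial cells it took 24.6% and 24.4%.

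Rps27l, which in human cells is induced by p53, took 45.9% of the pair with Rps27 in low-haemoglobin erythroid cells of the old library (45.5% to 46.3%) and 36.7% in the adult (34.2% to 39.4%), against 27.0% in old and 27.9% in adult stroma. Plasma cells were near stroma, at 25.7%, and endothelial cells lower, at 16.3% in old and 19.1% in adult marrow.

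Rpl39l took its highest shares in stroma. It took 6.12% of the pair with Rpl39 in old stroma (5.95% to 6.28%) and 7.77% in adult stroma (7.61% to 7.93%), and 3.90% and 4.06% in osteolineage cells. In plasma cells it took 0.149%, at 1.65 CPM, in old low-haemoglobin erythroid cells 0.277%, and in endothelial cells 0.863% and 0.959%. Rpl7l1 took 1.66% of the pair with Rpl7 in plasma cells, 4.91% in old low-haemoglobin erythroid cells and 5.48% in old stroma. Rpl3l, known from mouse heart and skeletal muscle, was at 0.79 CPM in stroma of either age, 0.156% of the pair with Rpl3 in old and 0.150% in adult cells.

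**Figure D5:**
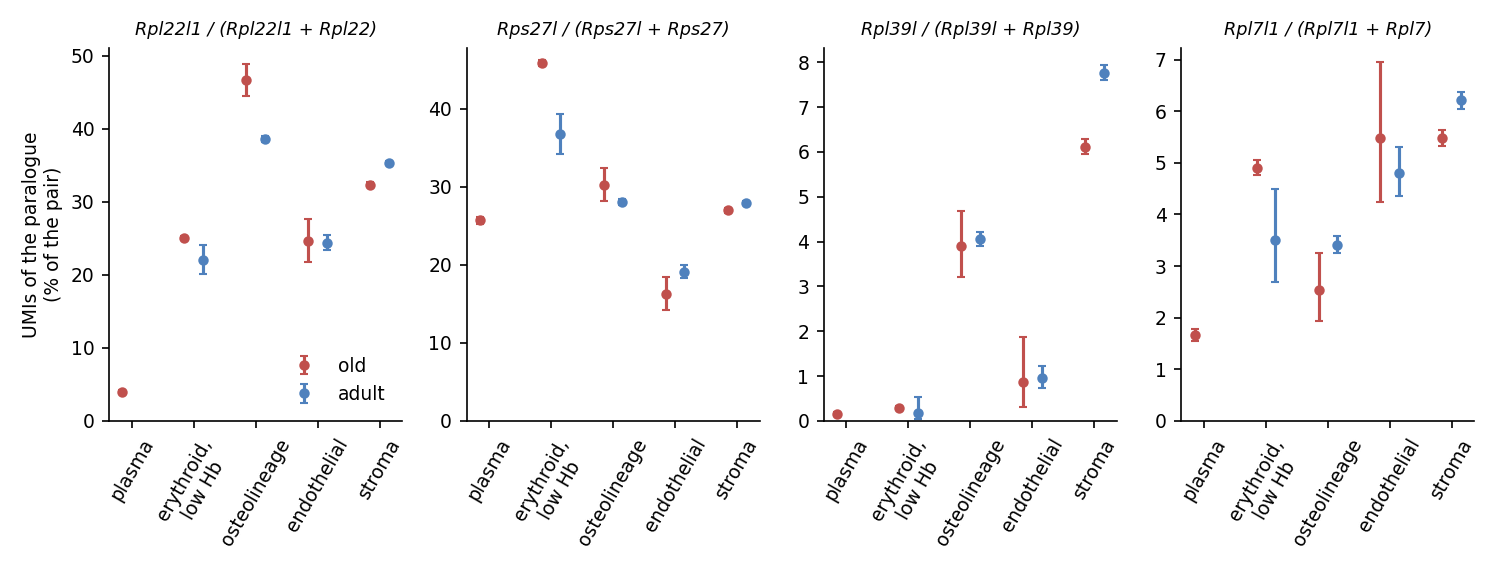
UMIs of each paralogue as a percent of the UMIs of the pair (y axis, with exact 95% counting intervals) by class, old left of adult. Rpl22l1 is at 3.98% in plasma cells, Rps27l reaches 45.9% in old low-haemoglobin erythroid cells, and Rpl39l is highest in stroma, at 6.12% in old and 7.77% in adult cells.

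In stroma, the make-up of the family was also compared between the ages. As shares of all ribosomal protein UMIs, 80 of 81 members with at least 100 UMIs in both libraries lay within 1.3-fold between old and adult stroma, with Rpl39l outside. Between cell types of the old library fewer lay within that range, 55 of 80 for plasma cells over stroma, where 5 differed at least 2-fold (Rpl10 upward, and Rpl21, Rpl9, Rpl7l1 and Rpl22l1 downward), and 61 of 81 for low-haemoglobin erythroid cells over stroma, where Rpl39l alone differed at least 2-fold. For endothelial cells over stroma, 72 of 79 lay within it in the old and 75 of 80 in the adult library.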

How the data were processed

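The authors deposited raw UMI counts per gene and barcode for each library. These counts were made with Cell Ranger 7.0.1, per the file headers, on GRCm39, per the submitters' processing notes, and filters on barcodes and the handling of reads shared between gene copies are not stated. Barcodes with under 500 genes or over 10% mitochondrial UMIs were left out, which kept 18975 of 22298 barcodes in the old and 22403 of 25635 in the adult library. Cells were gated on marker UMIs per 10000 UMIs (stroma 30, osteolineage 500, endothelial 20, plasma 10, erythroid 5, megakaryocyte 50, neutrophil 50) with at least 4 markers present, or 5 for stroma. A cell past both the stroma and osteolineage gates was taken as osteolineage. Cells past no gate (8.95% in old, 8.41% in adult) or past other combinations (2.01% and 2.29%) were not used. No doublet caller was run, and leaving out the deepest 5% of cells was tried in its place. UMIs were summed by class and divided by the class total to give CPM. Ratios were counted for genes with at least 50 UMIs and 50 CPM in the group where they are higher, and called at 2-fold. Intervals are exact binomial. Each sample is 1 library, so no statistical test was made. Named genes are the 8 highest and 8 lowest members with at least 100 UMIs in both groups, members past 2-fold, paralogues, stalk genes and the 4 most different of each list. Rpl13 was named after its value was seen. Not every gene this rule picks is printed, and 1 member is not reported here by name. Members, lists and gates were chosen with earlier results of these data known. Transcript lengths came from GENCODE M21 and promoters from RefSeq, both of the GRCm38 build, so no GRCm39 position is given. The ratio code was tested on simulated data. Python 3.11.15, numpy 2.4.6, scipy 1.17.1 and edgeR 4.0.16 were used.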

Additional observations from a re-analysis of the deposited data

Results flagged for a closer look

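The old over adult difference in the summed ribosomal protein share had opposite signs in different cell classes, and the difference between the classes was not tested because each age has 1 library. In stroma the log2 ratio was -0.16. In erythroid-gated cells it was 0.60, with shares of 22.8% in old and 15.1% in adult cells, where haemoglobin took 2.77% and 23.4% of UMIs. In erythroid cells at or above 20% haemoglobin it was 0.75, with shares of 3.89% in old and 2.31% in adult cells, although the cell medians ran the other way, at 1.53% and 1.66%. In low-haemoglobin erythroid cells it was -0.08, the sign of stroma, with shares of 23.9% in old and 25.3% in adult cells. There the mean share over cells ran the other way, at 23.7% in old and 19.5% in the 24 adult cells. The cell medians were 24.1% and 24.3%. Centred by transcript length, the members' median log2 ratio was 0.06 in stroma and -0.03 in all erythroid-gated cells. In megakaryocyte-gated cells the log2 ratio of the summed share was 0.13, with shares of 4.48% in old and 4.10% in adult cells. The cell medians there were 2.67% and 2.17%, at median depths of 1686 and 1542 UMIs.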

How the results depend on the processing

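Values below are the members' median log2 ratio unless a share is named. No paired analysis was possible because each age has 1 library and no result comes from a test. Old over adult in stroma (-0.16) was 0.062 with ratios centred by transcript length, and between -0.25 and -0.10 otherwise. With that centring, osteolineage cells gave 0.059, endothelial cells -0.14, erythroid cells -0.034, plasma over stroma 1.42 and erythroid over stroma 0.80 in old (Rps27 -0.36, Rpl39 -0.011) and 1.05 in adult marrow. Centred on the median of all genes, old over adult was -0.17 in stroma, -0.062 in osteolineage, -0.32 in endothelial and 0.049 in erythroid cells, plasma over stroma 2.79, and erythroid over stroma 2.15 in old and 2.01 in adult marrow. TMM scaling gave -0.12 in stroma, 0.47 in erythroid cells, 2.44 for plasma over stroma, and 2.60 and 1.75 for erythroid over stroma in old and adult marrow.

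Without mitochondrial, immunoglobulin and haemoglobin UMIs, old over adult was -0.16 in stroma and 0.26 in erythroid cells, plasma over stroma 1.97 and erythroid over stroma 2.22 in old and 1.78 in adult marrow, with shares of 5.22% in old stroma, 5.81% in adult stroma and 20.5% in plasma cells. With each cell weighted alike these were -0.10 in stroma, -0.080 in osteolineage, -0.27 in endothelial and 1.33 in erythroid cells, 1.04 for plasma over stroma, 1.85 and 0.41 for erythroid over stroma in old and adult marrow (Rpl30 -0.015 in adult), and shares of 5.04%, 5.41% and 10.7%. Each cell thinned to 2000 UMIs gave -0.14, -0.080, -0.27 and 1.25 for the same classes in that order, 1.04 for plasma, 1.90 and 0.45 for erythroid cells over stroma, shares of 4.99%, 5.49% and 10.7%, and 4.25% for Rpl22l1 in the plasma pair.

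No filter on cells gave -0.16 in stroma, -0.33 in endothelial and 0.66 in erythroid cells, 1.07 for plasma, 2.17 and 1.32 for erythroid cells over stroma, and shares of 5.03%, 5.62% and 10.6%. The stricter filter of 1000 genes and 5% mitochondrial UMIs gave -0.092 in osteolineage, -0.36 in endothelial and 0.39 in erythroid cells, 1.05 for plasma, 2.19 and 1.60 for erythroid cells over stroma, and shares of 5.11%, 5.71% and 10.6%. Doubled gates gave -0.20 in stroma, -0.13 in osteolineage, -0.29 in endothelial and 0.67 in erythroid cells, 1.05 for plasma, 1.69 and 0.80 for erythroid cells over stroma, shares of 4.95%, 5.74% and 10.3%, and 3.55% for Rpl22l1 in the plasma pair. Without the deepest 5% of cells, values were -0.11 in osteolineage, -0.37 in endothelial and 0.96 in erythroid cells, 1.04 for plasma, 2.20 and 1.06 for erythroid cells over stroma, shares of 5.01%, 5.59% and 10.4%, and 3.19% for Rpl22l1. Without a gene minimum, plasma over stroma was 1.02 and erythroid over stroma in old marrow 2.16, and with one of 200 the erythroid values were 2.19 in old and 1.40 in adult marrow.

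The remaining alternatives were chosen after the data were examined. Without shared barcodes, old over adult in stroma was -0.16, plasma over stroma 1.07 and the old stroma share 5.05%. A halved erythroid gate gave 0.49 for old over adult and 2.21 and 1.52 over stroma in old and adult marrow. Stroma cells of 2% to 4% Malat1 gave -0.25. Erythroid cells under 5% haemoglobin gave -0.049 and those at or above 20% gave 0.76. Of 1550 single-gene values under 17 alternatives, 1458 kept the sign they were reported with and 92 changed it. By size, 825 stayed within counting error of the reported value, 722 moved further and 3 reversed a ratio of at least 2-fold. Causes of these shifts were not tested. Low counts limit the 95 old osteolineage, 24 adult low-haemoglobin and 73 adult high-haemoglobin erythroid and 278 old endothelial cells.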

Other observations

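In erythroid cells low in haemoglobin, the ribosome assembly machinery and the ribosomal proteins had different ratios between the ages. All 28 ribosome biogenesis genes with enough UMIs were higher in the 447 old than in the 24 adult cells, 5 of them at least 2-fold, against 69% of all genes higher and 6.41% past 2-fold in either direction (median log2 ratio 0.71, median of all genes 0.20), while 55 of 80 ribosomal protein genes were lower (median -0.05). Rrp9, of the small-subunit processome, stood at 72.9 CPM in old and 26.2 CPM in adult cells (1.47, interval 0.77 to 2.28), Heatr1, another processome gene, at 94.7 and 36.1 CPM (1.39, interval 0.79 to 2.07), and Nop2, a ribosomal RNA methyltransferase, at 76.9 and 34.4 CPM (1.16). The minimum of 50 CPM applied only where a gene was higher, so Rrp9, Heatr1 and Nop2 were counted through their level in old cells alone. The counts of 28 and of 5 are therefore partly set by the filter. The abundant nucleolar chaperone Npm1 stood at 4653 CPM in old and 2694 CPM in adult cells (0.79, interval 0.72 to 0.86). Mitochondrial ribosomal protein genes were higher in old cells in 62 of 68, with a median of 0.39. The adult group was small and mixed, with a lower quartile of 6.04% for its ribosomal protein share against 22.1% in old cells, and Slc4a1, a late erythroid gene, had at least 1 UMI in 7.16% of the old cells and in 37.5% of the adult ones. The part of stage in these ratios was not tested.

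Immunoglobulin transcripts outside plasma cells differed between the libraries. They took 0.357% of UMIs in old stroma and 2.03e-04% in adult stroma, where 1109 plasma-gated cells were present in the old library and 0 in the adult.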
